A study of Sus scrofa with 12 samples.

Results

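Small RNA libraries from the testis of 30-day-old Landrace boars (La1 to La3) were compared with those of 30-day-old Hezuo boars (Ha1 to Ha3), which are 6 of the 12 libraries of the series. All listed miRNAs of these 6 libraries were taken, 1452 entries in all, and 1278 of them had at least 1 count and were tested. The comparison asks which miRNAs differ between a pig breed that matures early, the Hezuo pig, and one that matures later, the Landrace pig, while both are still immature. The other 6 libraries, Hb1 to Hb3 from Hezuo and Lb1 to Lb3 from Landrace boars of 120 days, served to set the 30-day differences beside those at the later age. They also entered an alternative fit of all 12 libraries. No group carried a transgene or a treatment, and the boars came from one breeding company. The study's methods speak of RNA from pooled samples and do not tie a library to 1 boar, so the p-values measure the spread between libraries, which may be smaller than that between animals. Levels are given in TPM, here the count per 1000000 clean tags, and a fold change is the fitted log2 ratio of Landrace over Hezuo with its standard error (SE). A miRNA was called where edgeR's quasi-likelihood test gave a Benjamini-Hochberg adjusted p under 0.05.

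The 6 libraries held 8697939 to 16874633 counts of listed miRNAs, and 1103 to 1174 entries were counted in each. A count of 0 allows up to 3 counts, which is 0.158 to 0.304 TPM in these libraries, and this covers counting error only, since reads without molecular identifiers are not independent molecules. Ha3 stood apart within its group. Its distance to the other Hezuo libraries was 11.9 and 12.8 on a log scale over 709 miRNAs against 9.502 between Ha1 and Ha2, and its distance to the Landrace libraries, 14.8 to 16.3, was smaller than that of Ha1 and Ha2, 16.5 to 18.7. Counts of most of the main groups are therefore given with and without it. ssc-miR-202-5p, a miRNA of the somatic cells of the gonad, was abundant in every library, at 20407, 17522 and 18320 TPM in Ha1 to Ha3 and at 13888, 15826 and 14490.2 TPM in La1 to La3 and no overlap, and it was not called (log2 fold change -0.26, adjusted p = 0.103). In whole testis, fewer cells of a type and less RNA per cell cannot be told apart.

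A miRNA is cut from a hairpin transcript and guides a silencing complex to messenger RNAs that pair with its seed, bases 2 to 8 of the mature strand, so miRNAs with one seed share many targets. The immature testis holds Sertoli cells, Leydig cells, peritubular cells, vessels and gonocytes or spermatogonia, and meiosis comes later. Several groups of miRNAs are known for their place in this tissue. The miR-34 and miR-449 family is made mainly by germ cells that have entered meiosis. X-linked miRNAs from miR-506 to miR-514 are expressed chiefly in testis, and the list used here adds miR-888 with miR-890 and miR-892. miR-221 and miR-222 are linked to the undifferentiated spermatogonium, and the imprinted DLK1-DIO3 locus carries one of the largest miRNA clusters of placental mammals. Names starting with ssc- are pig entries of miRBase, names ending in -x, -y or -z are entries matched to miRNAs of other species, and names of an m with a number (m0021-3p) are strands of hairpins predicted from the tags, given without their class prefix.

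The mature sequences below are as deposited, 5′ to 3′, with the seed in capitals. The first set is shown because these 6 are among the 9 miRNAs that differed between the breeds in the same direction at both ages. No 2 of them share a seed, and those below 10 TPM were named after their values were seen.
ssc-miR-4331-5p: tGGCGTAGatcacagacacagc
ssc-miR-7135-5p: tCTCTGAGacactgactgtgg
ssc-miR-31: aGGCAAGAtgctggcatagctg
miR-384-y: aTTCCTAGaaattgttcacaat
m0021-3p: tCAGCAATtcttggttctcatt
m0093-3p: aAAGACTAtaaaataaaaagga

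The second set holds leading members of the X-linked and the miR-34 and miR-449 groups, which were lower in the Landrace libraries. The seeds of the 4 X-linked members shown differ from each other, and miR-509-y and miR-514-y are listed with 1 identical sequence, while ssc-miR-34c and miR-449-x share their seed.
miR-506-z: tGAATGGCgcctttctgagtaga
miR-507-z: tGATTGGCacctctttgagtgac
miR-508-y: aCTGTCACctttttgagtaga
miR-509-y: tGATTGACacctctgttagtgga
ssc-miR-34c: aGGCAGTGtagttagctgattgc
miR-449-x: tGGCAGTGtattgttagctggt

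The third set holds 2 seed families that were higher in the Landrace libraries, miR-181 with ACATTCA and miR-221 with GCTACAT. Within each family the members differ outside the seed.
ssc-miR-181a: aACATTCAacgctgtcggtgagtt
ssc-miR-181b: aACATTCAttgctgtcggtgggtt
ssc-miR-181c: aACATTCAacctgtcggtgagt
ssc-miR-181d-5p: aACATTCAttgttgtcggtgggtt
ssc-miR-221-3p: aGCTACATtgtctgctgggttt
ssc-miR-222: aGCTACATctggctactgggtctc

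Of 1278 miRNAs tested, 145 (11.3%) were called, 64 (5.01%) higher and 81 (6.34%) lower in the Landrace libraries. The called miRNAs that were higher differed little, with a median log2 fold change of 0.68, and those that were lower differed more, with a median of -1.09. A log2 fold change beyond 1 in size was found in 67 called miRNAs (5.24%), 21 higher and 46 lower. The level was at least 10 TPM in 1 of the groups for 97 of the 145. Groups did not overlap for 132 of the 145 called and for 351 (27.5%) of all tested. At the study's thresholds, a log2 fold change above 1 in size and an unadjusted p under 0.05, 48 miRNAs (3.76%) were higher and 73 (5.71%) lower, together 9.47%. Without Ha3 the counts became 110 higher and 152 lower, without 1 of the other libraries 29 to 46 higher and 49 to 71 lower, and in a fit of all 12 libraries, which share 1 spread across ages, 10 higher and 19 lower. Scaling by library size alone, which shifts the median log2 fold change of all miRNAs from -0.01 to -0.11, gave 40 higher and 106 lower.

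Of 352 pig entries of miRBase tested, 34 were higher and 24 lower (16.5% called, beside 11.3% over all miRNAs), of 689 entries of other species 28 were higher and 38 lower (9.58%), and of 237 strands of predicted hairpins 2 were higher and 19 lower (8.86%). Entries of other species took 6.85, 7.63 and 5.67% of the counts in Ha1 to Ha3 and 5.63, 5.35 and 5.38% in La1 to La3, without overlap. The exact permutation test of this share, two-sided, gave p = 0.10, the smallest value that 3 against 3 libraries allow. Most of this difference lay in the X-linked group described later: the summed level of entries of other species went from 59459 to 48662 TPM between the group means, and that of the X-linked group, all of whose 20 entries are of this class, from 18938 to 8507 TPM.

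**Figure D1:**
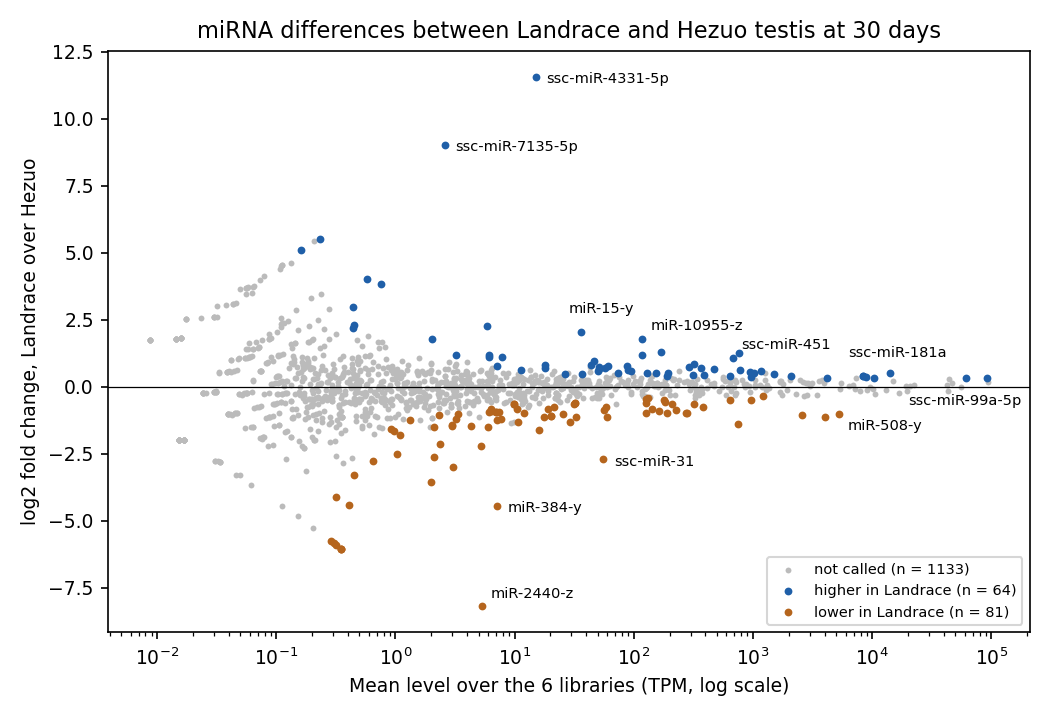
Each point is 1 of the 1278 miRNAs tested, with the mean of the group means in TPM on a log axis and the fitted log2 ratio of Landrace over Hezuo at 30 days on the other axis. Blue points were higher (64) and brown points lower (81) at an adjusted p under 0.05, grey points were not called. The most abundant miRNAs lie close to 0 and the far points on either side are at low to moderate level.

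The 10 most abundant took 56.7 to 60.5% of the counts in the 6 libraries and their log2 fold changes ran from -0.16 to 0.32. The 2 called among them were ssc-miR-99a-5p and ssc-miR-199a-5p. ssc-miR-99a-5p, from a family that clusters with let-7 genes, stood at 78239.6, 90368.8 and 86947.2 TPM in the Hezuo and at 94345.8, 103762 and 103097 TPM in the Landrace libraries (log2 fold change 0.32, adjusted p = 0.0442). The groups did not overlap, but the call was lost without Ha1, La2 or La3, with DESeq2, the exact test (adjusted p = 0.114), filterByExpr, scaling by library size alone and either merging of like sequences, and in the fit of all 12 libraries. That of ssc-miR-199a-5p was lost without Ha1, Ha2, La2 or La3, with the exact test and scaling by library size alone, and in the fit of all 12 libraries. In 6 lists of families with broad roles no member was called by edgeR's test. The let-7 and miR-98 family, which marks differentiated cells, had 0 of 16 called by edgeR's, DESeq2's or the exact test and 2 at an unadjusted p under 0.05, with a median log2 fold change of 0.01 beside -0.01 over all miRNAs tested. For miR-30 these were 0 of 13 and 0 unadjusted (median 0.07), for miR-29 0 of 7 and 0, and for miR-26 0 of 6 and 1 (0.11). The miR-424 cluster had 0 of 18 and 4 (-0.28). miR-10 with miR-196 and miR-615 had 0 of 11 by edgeR's test, 1 by DESeq2 and by the exact test, and 1 unadjusted (-0.33).

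A few miRNAs were nearly confined to one breed. ssc-miR-4331-5p had no count in Ha1 to Ha3 and stood at 37.8, 25.6 and 27.0 TPM in La1 to La3, so it was at least 105-fold higher in the Landrace libraries (adjusted p = 1.74e-08). Its hairpin gene MIR4331 occupies bases 65468483 to 65468562 of chromosome 6 in the Sscrofa11.1 build. The strand on the other side of the hairpin, ssc-miR-4331-3p, was counted in all 6 libraries at 0.262 to 1.38 TPM and was not called (log2 fold change -1.01 ± 0.60, SE, adjusted p = 0.323). The difference was thus seen on the 5′ strand, the one whose seed is printed above. At 120 days the 5′ strand was again at 0 in Hb2 and Hb3 and at 0.269 TPM in Hb1, against 33.9 to 38.5 TPM in Lb1 to Lb3.

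ssc-miR-7135-5p was of the same kind at a lower level. It had no count in Ha1 to Ha3 and stood at 2.44, 7.11 and 5.96 TPM in La1 to La3, at least 18.1-fold higher (adjusted p = 4.86e-05). MIR7135 lies on chromosome 3 from 28371952 to 28372010, within the bounds of ABCC1, which encodes a drug transporter. The opposite strand, ssc-miR-7135-3p, was present in both breeds at 0.553, 1.22 and 1.11 TPM in the Hezuo and 1.92, 3.89 and 3.48 TPM in the Landrace libraries (log2 fold change 1.78), so both strands were called in the same direction, the 5′ strand only in Landrace at this age.

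ssc-miR-31 and miR-384-y were lower in the Landrace libraries. ssc-miR-31, a broadly expressed miRNA known from smooth muscle, epithelium and tumours, stood at 77.3, 119.8 and 94.5 TPM in Ha1 to Ha3 and at 12.7, 15.0 and 14.1 TPM in La1 to La3 (log2 fold change -2.72 ± 0.18, SE, adjusted p = 3.42e-07), 6.57-fold lower without overlap. MIR31 lies on chromosome 1 from 201198732 to 201198809. The opposite strand entry miR-31-y went the same way, with 1.11 to 1.20 TPM in the Hezuo and 0.0948 to 0.262 TPM in the Landrace libraries. miR-384-y stood at 12.4, 11.0 and 17.7 TPM against 0.262, 0.569 and 0.791 TPM (log2 fold change -4.47 ± 0.34, SE, adjusted p = 7.07e-07), and its opposite strand miR-384-x at 4.43, 2.64 and 4.17 TPM against 0.175, 0.284 and 0.369 TPM (-3.56). miR-325-y, below 10 TPM in both groups and named after its values were seen, was likewise lower, with 4.89, 4.97 and 6.48 TPM against 1.05, 0.190 and 0.633 TPM (-3.01). These 3 miRNAs had no overlap between the breeds in any strand named here.

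A pair of predicted hairpins on chromosome X were also lower at both ages. m0021 lies from 74286653 to 74286713 and m0093 from 74287583 to 74287641, with 870 bases from the end of the first to the start of the second. m0021-3p stood at 9.40, 10.8 and 6.02 TPM in the Hezuo and at 1.75, 1.52 and 2.003 TPM in the Landrace libraries (log2 fold change -2.20, adjusted p = 0.000116). m0093-3p was counted at 0.553, 0.913 and 0.278 TPM in Ha1 to Ha3 and was at 0 in La1 to La3, at least 2.48-fold lower. At 120 days both were higher in Hezuo than at 30 days, with 21.7 to 33.1 TPM of m0021-3p against 1.06 to 1.36 TPM in Landrace, and 2.40 to 5.66 TPM of m0093-3p against 0 in each of Lb1 to Lb3.

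**Figure D2:**
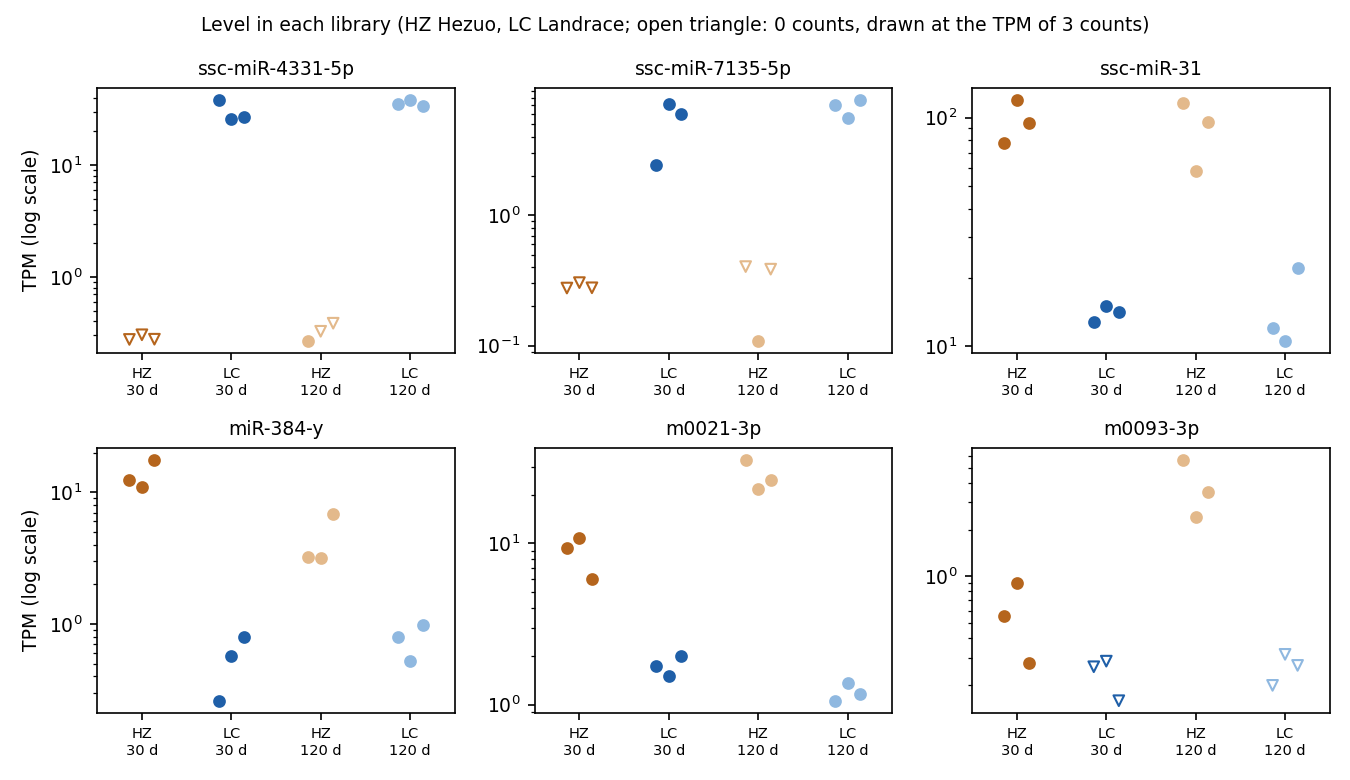
Levels in TPM on a log axis of 6 miRNAs in the 12 libraries, by group (Ha, La, Hb, Lb). Filled points are libraries, and an open triangle marks a library with 0 counts, drawn at the TPM of 3 counts. ssc-miR-4331-5p and ssc-miR-7135-5p are absent or nearly so from Hezuo at both ages, and ssc-miR-31, miR-384-y, m0021-3p and m0093-3p are lower in Landrace at both ages.

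The X-linked list of miR-506 to miR-514 with miR-888 was lower in Landrace as a group. Of its 20 entries, 13 (65%, beside 6.34% lower over all miRNAs) were lower and 0 higher at an adjusted p under 0.05, all 20 log2 fold changes were below 0, and their median was -1.03 beside -0.01 over all miRNAs tested. Its summed level was 19639, 27160.1 and 10013 TPM in Ha1 to Ha3 and 8949, 8447 and 8124 TPM in La1 to La3. The Landrace libraries lay close together and below every Hezuo library, and Ha3 lay nearest to them. Without Ha3, 16 entries were called lower and the median was -1.31. Without 1 of the other libraries, 5 to 10 were called, 5 of them without La1. With a robust estimate of the spread, 3 of the 20 were called.

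miR-506-z stood at 1207, 1575 and 508 TPM in the Hezuo and at 386, 381 and 399 TPM in the Landrace libraries (log2 fold change -1.41 ± 0.27, SE, adjusted p = 0.00474). miR-507-z was at 5737, 7944 and 3075 TPM against 2642, 2290.0 and 2275 TPM (-1.13 ± 0.23). Neither overlapped between the breeds, and both calls were lost with the robust estimate (adjusted p = 0.163 and 0.174). miR-508-y, the most abundant entry of the cluster, was at 7684, 10516.5 and 3556 TPM against 3517, 3456 and 3221 TPM (-1.01 ± 0.26, adjusted p = 0.0201), where Ha3 was just above La1 and the call was lost without La1 or La2, with the robust estimate and with filterByExpr. Several entries are near copies: miR-508-z has the sequence of miR-508-y with other ends, miR-513-y and miR-890-y are 1 edit from it, and miR-509-y and miR-514-y are identical, so the 20 entries are not 20 separate measurements.

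Predicted hairpins of chromosome X were called in the lower direction only. Of 16 listed on X, 13 were tested, and 6 were called lower and 0 higher, beside 6.34% lower over all miRNAs and 19 lower of all 237 predicted hairpin strands tested, while 4 of the 13 had a log2 fold change above 0. The stretch from the hairpin of m0003 to that of m0012, 118943575 to 119846814, holds 7 of the 13 and 4 of the 6. m0012-5p, itself not called, has the sequence of miR-509-x of the miR-506 group with at most other ends. The hairpins of this stretch are therefore not a set separate from that group. m0001-5p, at 118946841 to 118946894, stood at 1198, 1115 and 1203 TPM in the Hezuo and at 863, 742 and 718 TPM in the Landrace libraries (log2 fold change -0.51 ± 0.10, SE, adjusted p = 0.00517). Here Ha3 was as high as the other Hezuo libraries, unlike in the miR-506 group. m0002-3p, at 119807711 to 119807769, was at 480, 698 and 295 TPM against 269, 289 and 265 TPM (-0.75). m0005-3p was at 80.9, 84.6 and 61.8 TPM against 46.2, 39.2 and 41.5 TPM (-0.75), and m0013-5p at 33.3, 30.1 and 10.8 TPM against 9.34, 6.45 and 6.96 TPM (-1.62). The groups did not overlap for these 4, and Ha3 was lowest of the Hezuo libraries in all but m0001-5p. The call of m0013-5p was lost with a robust estimate of the spread. In the same stretch m0046-3p, at 118946352 to 118946408, had the other sign, with 0.369, 0 and 0.0926 TPM against 1.05, 0.379 and 0.738 TPM, no overlap and no call (2.22, adjusted p = 0.077).

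The miR-34 and miR-449 family, the marker list for meiotic and haploid germ cells, was at a low level in all 6 libraries. Its summed level was 104.6, 99.1 and 37.5 TPM in Ha1 to Ha3 and 39.6, 28.6 and 35.4 TPM in La1 to La3, so Ha3 lay within the Landrace range, while at 120 days it was 3005 to 14799 TPM in Hezuo and 12617 to 15538 TPM in Landrace. Of 7 entries tested, 3 (42.9%, beside 6.34% lower over all miRNAs) were called lower and 0 higher, with a median log2 fold change of -1.26. ssc-miR-34c was at 62.0, 47.3 and 19.0 TPM against 20.2, 12.5 and 15.97 TPM (-1.31 ± 0.31, SE, adjusted p = 0.014). miR-449-x was at 14.4, 14.4 and 4.44 TPM against 4.28, 3.89 and 5.06 TPM (-1.22, adjusted p = 0.0328). Both overlapped through Ha3, and miR-34-y did not, with 13.9, 11.2 and 5.74 TPM against 5.24, 3.03 and 3.80 TPM (-1.26). Without Ha3 4 entries were lower with a median of -1.60, and without Ha1 or La2 edgeR's test called 0 of the 7, with 4 and 3 at an unadjusted p under 0.05. With the robust estimate 1 was called, and ssc-miR-34c and miR-449-x were not, nor were they with filterByExpr.

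**Figure D3:**
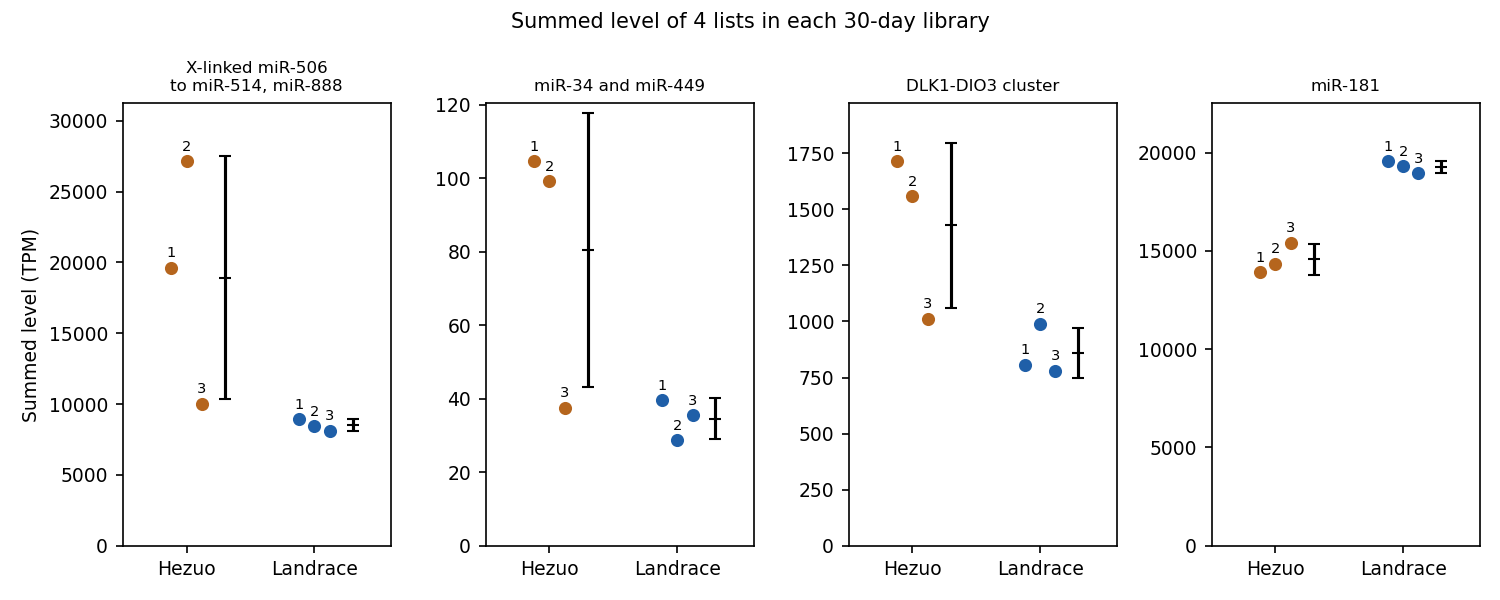
Summed TPM of 4 groups of miRNAs in each 30-day library. Numbers are replicate numbers and bars the mean ± SD of 3 libraries. In the X-linked, miR-34 and miR-449 and DLK1-DIO3 groups the library Ha3 is the lowest of the Hezuo libraries, and in the miR-181 group the Landrace libraries lie above the Hezuo libraries.

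The imprinted DLK1-DIO3 cluster showed the same direction. Of 63 entries tested, 11 (17.5%, beside 6.34% lower over all miRNAs) were lower and 0 higher, with a median log2 fold change of -0.50. The summed level was 1716, 1558 and 1012 TPM in the Hezuo and 807, 989 and 781 TPM in the Landrace libraries, again with Ha3 nearest to Landrace. Without Ha3 32 entries were called lower with a median of -0.69, without 1 of the other libraries 3 to 9, with the robust estimate 8, and with scaling by library size alone 16. ssc-miR-370 was at 33.0, 26.1 and 25.5 TPM against 13.5, 13.5 and 10.3 TPM (-1.09 ± 0.17, SE, adjusted p = 0.00119). ssc-miR-411 was at 39.6, 36.6 and 28.9 TPM against 15.3, 18.01 and 15.1 TPM (-1.03 ± 0.17). Neither overlapped, and in both Ha3 was well above the Landrace libraries. ssc-miR-127, whose gene lies on chromosome 7 from 121709636 to 121709715 within RTL1, was at 477, 431 and 282 TPM against 212, 295 and 207 TPM (-0.64), with Ha3 below La2, and the call was lost without Ha1, Ha2, La1 or La3, with the robust estimate and with filterByExpr. At 120 days the median of the cluster was above 0, in the other direction, with 223 to 497 TPM in Hb and 347 to 890 TPM in Lb.

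Among the miRNAs higher in Landrace was the miR-181 family. Of its 7 entries 6 (85.7%, beside 5.01% higher over all miRNAs) were called higher and 0 lower, with a median log2 fold change of 0.50. The count was 2 without Ha1, 3 without Ha2, La2 or La3, 4 without La1 or with scaling by library size alone, and 6 without Ha3. ssc-miR-181a and ssc-miR-181c are 1 edit apart, as are ssc-miR-181b and ssc-miR-181d-5p. ssc-miR-181a, an abundant miRNA also known from lymphocyte development, was at 11656.9, 12085 and 12847 TPM in Ha1 to Ha3 and at 16339, 16302 and 15979 TPM in La1 to La3 (log2 fold change 0.50 ± 0.09, SE, adjusted p = 0.00321). ssc-miR-181c was at 584, 639 and 698 TPM against 985, 906 and 897 TPM (0.62 ± 0.11, adjusted p = 0.00231). ssc-miR-181b (0.37) and ssc-miR-181d-5p (0.52) were called as well. The call of ssc-miR-181b was lost with the exact test, with scaling by library size alone and without any 1 library but Ha3, and that of ssc-miR-181d-5p without Ha1. In the fit of all 12 libraries none of the 6 was called, as held for 66 of the 77 called miRNAs named. miR-181a and miR-181b each have genes on chromosome 10 and on chromosome 1 (within NR6A1), and the counts of a mature strand cannot be assigned to either copy, while miR-181c and miR-181d come from chromosome 2. At 120 days the summed level was 6695 to 8958 TPM in Hezuo and 10391 to 11607.5 TPM in Landrace, but none of the 4 was called at that age, with log2 fold changes from -0.43 to 0.40 and adjusted p from 0.356 to 0.776.

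miR-221 and miR-222 come from 1 cluster on chromosome X, with MIR221 from 40571068 to 40571137 and MIR222 from 40571808 to 40571887. ssc-miR-222 was at 1116, 820.4 and 1015 TPM in the Hezuo and at 1702, 1132 and 1294 TPM in the Landrace libraries (log2 fold change 0.57), and the call was lost without La1. ssc-miR-221-3p was at 410.4, 342 and 383 TPM against 703, 479 and 503 TPM (0.65, adjusted p = 0.00521). The list of spermatogonial markers that holds them gave 5 higher and 0 lower of 14 (35.7%, beside 5.01% higher over all miRNAs), and of the other 3 called, miR-221-y and miR-221-z are within 1 edit of ssc-miR-221-3p. With scaling by library size alone the list gave 3 higher and 1 lower. Both named here were highest in La1 and did not overlap. The third spermatogonial marker, ssc-miR-21-5p, was not called (-0.11, adjusted p = 0.554). X linkage thus did not go with a single direction, since the miR-221 cluster was higher and the miR-506 cluster lower in Landrace.

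miR-15, miR-16, miR-195 and miR-497 are related miRNAs that restrain the cell cycle. Of 14 entries 5 (35.7%, beside 5.01% higher over all miRNAs) were called higher and 0 lower, with a median log2 fold change of 0.37. The 5 are 3 sequences, since miR-195-x and miR-497-x have the sequences of ssc-miR-195 and ssc-miR-497 with at most other ends, and miR-15-y has the seed GAATCAT, not the AGCAGCA of miR-16. miR-15-y was at 13.2, 15.1 and 16.4 TPM in the Hezuo and at 53.0, 58.2 and 62.8 TPM in the Landrace libraries (2.05 ± 0.16, SE, adjusted p = 7.07e-07), 4.14-fold higher without overlap. ssc-miR-195 was at 267, 346 and 273 TPM against 509, 408 and 420 TPM (0.68), and ssc-miR-497 at 56.1, 70.1 and 74.5 TPM against 119.7, 95.9 and 110.3 TPM (0.78). These 2 share a cluster on chromosome 12, with MIR195 from 52422039 to 52422118 and MIR497 from 52422329 to 52422408. Summed over the 15 entries with the seed AGCAGCA, of which ssc-miR-16 is the most abundant, the log2 fold change was 0.18 and not called (adjusted p = 0.291).

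Of the 38 entries of miR-17 to miR-92 and their paralogues, which promote proliferation, 5 (13.2%, near the 11.3% over all miRNAs) were higher and 0 lower, with a median log2 fold change of 0.27. The count was 14 without Ha3, 2 without any 1 of the other 5 libraries (with 1 lower without La3) and 2 with scaling by library size alone. ssc-miR-92b-3p was at 63.5, 72.4 and 86.7 TPM in the Hezuo and at 159.2, 160.8 and 158.9 TPM in the Landrace libraries (1.19 ± 0.14, SE, adjusted p = 5.56e-05). ssc-miR-92a, with the same seed and a far higher level, was at 7741, 7010 and 9373 TPM against 10470.6, 9723 and 9104 TPM (0.37), Ha3 overlapped with the Landrace libraries, and miR-92-y, also called, has its sequence with at most other ends. The call of ssc-miR-92a was lost with DESeq2, the exact test, filterByExpr, scaling by library size alone and either merging of like sequences (adjusted p = 0.053 within 1 edit), in the fit of all 12 libraries, and without any 1 library but Ha3. The list of miR-101, miR-148 and miR-152 gave 2 higher of 15 (13.3%, beside 11.3% over all miRNAs), ssc-miR-101 (0.38) and ssc-miR-148a-3p (0.32), both lost with scaling by library size alone. With sequences within 1 edit merged, ssc-miR-101 stood at 0.10 and the call was lost (adjusted p = 0.56). ssc-miR-708-5p was at 236, 165 and 284 TPM against 351, 385 and 328 TPM (0.73), and its opposite strand ssc-miR-708-3p was called in the same direction (0.63).

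The 5 remaining lists held 1 or 2 calls each, 5.88 to 25% of their entries. miR-183 and miR-96, 2 of a sensory-organ cluster with miR-182, were lower (2 of 8, beside 11.3% over all miRNAs), with ssc-miR-183 at 213, 214 and 217 TPM in the Hezuo and 131, 154 and 147 TPM in the Landrace libraries (log2 fold change -0.49). Both calls were lost without La1 and without La3. Of miR-23, miR-24 and miR-27, 1 of 17 was called lower, miR-23-z (-0.35), which has the sequence of ssc-miR-23b with other ends. ssc-miR-23b had a log2 fold change of 0.003 (adjusted p = 0.986), and with sequences within 1 edit merged the call of miR-23-z was lost (adjusted p = 0.984). Of imprinted loci other than DLK1-DIO3, 1 of 10 was higher, a share near that over all miRNAs. This was ssc-miR-335, at 115, 125 and 151 TPM against 206, 149 and 175 TPM (0.52) with overlap, and the call was lost without Ha1, Ha2, La1 or La3, with filterByExpr and with scaling by library size alone. Of miR-193 and miR-365, 1 of 8 was higher, ssc-miR-193a-5p, at 31.2, 43.3 and 24.3 TPM against 50.8, 58.8 and 53.7 TPM (0.81). Of miR-132 and miR-212, 1 of 6 was higher, miR-132-y, at a level below 10 TPM (2.18).

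Single miRNAs outside these groups were lower in Landrace. ssc-miR-378, which has genes on chromosome 2 within PPARGC1B and on chromosome 12 within BCAS3, was at 226, 220.01 and 203 TPM in the Hezuo and at 110.5, 103 and 113 TPM in the Landrace libraries (log2 fold change -0.90 ± 0.11, SE, adjusted p = 9.87e-05). miR-1983-z was at 29.5, 26.6 and 18.7 TPM against 10.8, 10.5 and 10.7 TPM (-1.13 ± 0.19). Neither overlapped, and no call was lost by leaving out 1 of the 6 libraries. m0020-3p, whose hairpin lies within TEX14, a gene needed for the bridges between germ cells, was at 27.4, 19.2 and 38.8 TPM against 15.6, 8.34 and 13.1 TPM (-1.11). miR-2440-z was at 0, 19.4 and 12.4 TPM in Ha1 to Ha3 and at 0.0873, 0 and 0 TPM in La1 to La3. This is 1 count in the Landrace group, a ratio of 423 with a 95% counting interval of 75.3 to 16749, but Ha1 had no count, so the groups overlapped, and the call was lost with a robust estimate of the spread.

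Markers of other cell types were looked at in the same libraries. Of 10 erythroid entries 3 were higher and 1 lower (40% called, beside 11.3% over all miRNAs), with a median log2 fold change of 0.50, and their summed level was 1357, 1768 and 1539 TPM in Ha1 to Ha3 and 2468, 2201 and 2201 TPM in La1 to La3. ssc-miR-451, the leading miRNA of red cells, was at 374, 519.8 and 474 TPM against 1045, 805 and 869.7 TPM (1.07 ± 0.14, SE, adjusted p = 0.000153). ssc-miR-144, from the same cluster on chromosome 12, was at 759, 998 and 839 TPM against 1192, 1208 and 1112 TPM (0.52), and ssc-miR-486, also abundant in red cells, at 150.2, 155 and 146 TPM against 111, 94.1 and 103 TPM (-0.46). The third higher entry, miR-451-x, has the sequence of ssc-miR-451 with at most other ends. The log2 fold changes of the 3 red-cell miRNAs thus did not share 1 direction, and the part of blood in other differences was not tested. The call of ssc-miR-486 was lost without La2 or La3, and that of ssc-miR-144 without Ha1 or La2. Both were lost in the fit of all 12 libraries.

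Leukocyte markers had nearly equal sums, 1927 to 2088 TPM in the Hezuo and 1920.3 to 2086 TPM in the Landrace libraries, but single members differed in both directions, 1 higher and 2 lower of 16 (18.8% called, beside 11.3% over all miRNAs). ssc-miR-142-5p, a miRNA of blood cells, was at 801, 807 and 811 TPM against 1142, 1105 and 1060.1 TPM (0.54). ssc-miR-146b was at 201, 239 and 234 TPM against 134, 146 and 146 TPM (-0.58), and miR-146-x, of a family that dampens innate signalling, at 326, 299.8 and 269 TPM against 147, 152 and 161 TPM (-0.87). The 2 lower entries are 1 sequence with at most other ends. None of these overlapped. Mesenchymal miR-199 and miR-214 gave 4 higher of 12 (33.3%, beside 5.01% higher over all miRNAs), all 12 log2 fold changes above 0 with a median of 0.31, and ssc-miR-199a-5p was at 57241 TPM or less in each Hezuo and at 62488 TPM or more in each Landrace library. The 4 are not 4 separate measurements, since ssc-miR-199a-3p and ssc-miR-199b-3p are 1 edit apart and nearly equal in log2 fold change (both 0.39). That list had no call without Ha1, La2 or La3 or with scaling by library size, and 4 higher without Ha3.

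Smooth muscle markers gave 0 higher and 1 lower of 9 (11.11%, beside 11.3% called over all miRNAs). The count was 3 lower with scaling by library size alone and 2 lower with the robust estimate. These markers had 7 lower without Ha3 and 0 called without Ha1, Ha2, La1 or La2. Their sum was 30441, 36347 and 22030.0 TPM in Ha1 to Ha3 and 20687, 24067 and 26749 TPM in La1 to La3, so that Ha3 was again on the Landrace side. Endothelium (4 entries), the somatic gonad (5) and liver (2) had 0 calls by edgeR's, DESeq2's or the exact test and 0, 3 and 0 entries at an unadjusted p under 0.05, and the liver pair was at 8.99 to 25.2 TPM in sum. Striated muscle had 1 call of 16 (6.25%, beside 11.3% called over all miRNAs). This was ssc-miR-206, at 23.2, 26.5 and 24.5 TPM against 13.0, 11.9 and 14.3 TPM (-0.83). Neuronal and endocrine markers had 3 lower of 27 (11.11%, beside 11.3% called over all miRNAs), which are 2 sequences: ssc-miR-375 at 9.31, 9.64 and 11.0 TPM against 4.19, 5.21 and 5.17 TPM (-0.95), and ssc-miR-129a-5p and ssc-miR-129b with 1 sequence and identical counts. Epithelium had 1 lower of 14 (7.14%, beside 11.3% called over all miRNAs), ssc-miR-141 (-0.93). The part of these cell types in other results was not tested.

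Calls also moved with the libraries left out in lists described above without that value. The 5 higher of the spermatogonial list became 8 with 1 lower without Ha3, 4 without La2, and 2 without Ha1, Ha2, La1 or La3. The 3 higher erythroid entries became 5 without Ha3, 1 without Ha1 and 2 without La1, La2 or La3, and the 1 lower was lost without La2 or La3. The 5 higher of miR-15 and miR-16 became 7 without Ha3 and 4 without Ha1 or La1. The epithelial call was lost without Ha1, Ha2, La1 or La3, the 2 of miR-101, miR-148 and miR-152 without Ha1, La2 or La3, that of miR-23, miR-24 and miR-27 without Ha1, La1, La2 or La3, that of miR-132 and miR-212 without any 1 library but Ha3, and that of miR-193 and miR-365 without Ha1 or La2. The 3 neuronal and endocrine calls became 4 without Ha2 or Ha3, 2 without Ha1 and 1 without La1, La2 or La3. Without Ha3, further calls appeared. miR-10 with miR-196 and miR-615 went from 0 to 3 lower, epithelium from 1 to 3 lower, the somatic gonad from 0 to 2 lower, and striated muscle from 1 lower to 3 lower and 1 higher. miR-193 and miR-365 gained 2 lower, endothelium and liver 1 lower each, let-7 and miR-26 1 higher each, and miR-99 with miR-100 and miR-125 and the other imprinted loci went from 1 to 2 higher each.

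**Figure D4:**
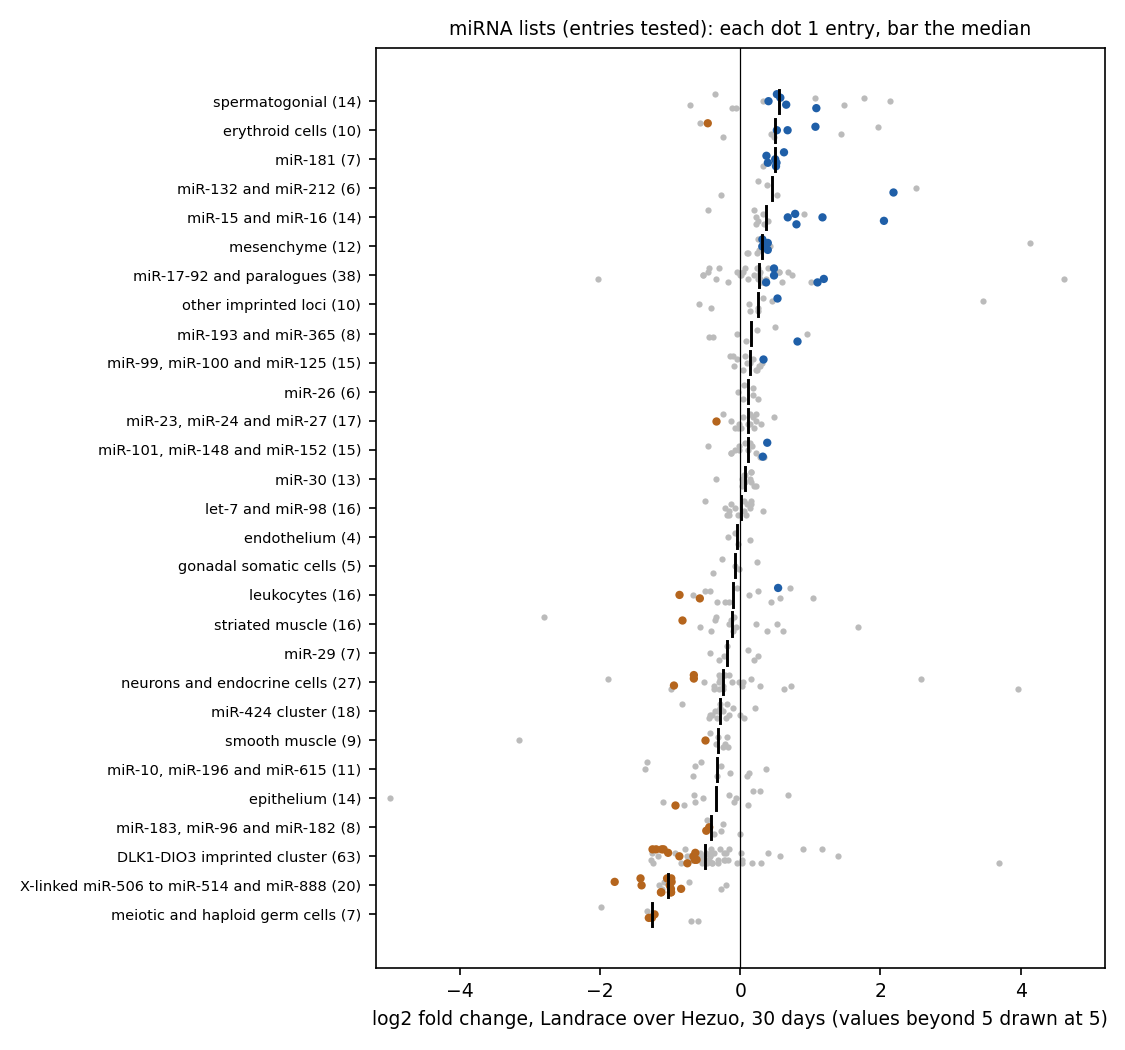
Log2 ratio of Landrace over Hezuo at 30 days of every tested entry, by list, with the median as a bar, and values beyond 5 drawn at 5. Called entries lie to the left for the X-linked, miR-34 and miR-449 and DLK1-DIO3 lists and to the right for miR-181, the spermatogonial miR-221 and miR-222, and miR-15 and miR-16.

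A further group was chosen after its values were seen, so its share of calls is no test against that over all miRNAs. Of 31 listed sequences that end in CCA, the 3 bases found at the 3′ end of mature tRNAs, 29 were tested, and 9 (31.0%, beside 5.01% higher over all miRNAs) were called higher and 0 lower, with a median log2 fold change of 0.35. Several of the 9 are copies of each other, since miR-2779-z, miR-7550-x and miR-11202-x are 1 sequence with at most other ends, and miR-9995-y and miR-9993-y are 1 edit apart. All 9 have 18 bases, the shortest length kept by the filter. Tested entries of other lengths that end in CCA were not called. Their log2 fold changes lay on both sides of 0, from -1.02 (miR-434-x) to 0.84 (m0039-3p). The 57 tested entries of 18 bases that do not end in CCA had a median of 0.45 with 36 above 0, and 1 was called higher and 0 lower. However, 0 of these 57 reached 10 TPM and they summed to 14.6 to 27.4 TPM in a library. They and the entries of 18 bases that end in CCA thus cannot be compared by their calls. The leading members are shown with their last 3 bases in capitals.
miR-10955-z: tccccgtacgggccaCCA
miR-2478-z: atcccacttctgacaCCA
miR-1260-z: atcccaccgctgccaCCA
miR-3968-z: atcccactcctgacaCCA

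miR-10955-z was at 51.6, 62.0 and 53.2 TPM in the Hezuo and at 177.7, 181.8 and 181.8 TPM in the Landrace libraries (log2 fold change 1.79 ± 0.13, SE, adjusted p = 4.17e-07). miR-2478-z was at 437, 494 and 479 TPM against 1015, 1093 and 1086 TPM (1.27 ± 0.11, adjusted p = 2.33e-06), and miR-1260-z at 89.7, 121 and 97.2 TPM against 227, 238 and 241 TPM (1.28 ± 0.14). The Landrace libraries lay close together in all 3, with no overlap. miR-3968-z, 1 edit from miR-2478-z, was at 218, 241 and 258 TPM against 395, 403 and 419 TPM (0.85). At 120 days the median of the list was -0.15. Without Ha3 the list gave 12 higher and 1 lower at 30 days.

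Counts were also summed by seed. Of 852 seeds, 87 (10.2%) were called, 32 (3.76%) higher and 55 (6.46%) lower. The seed ACATTCA of miR-181, with 5 entries, went from 13986 to 18571 TPM between the group means of Hezuo and Landrace (log2 fold change 0.48), and GCTACAT of miR-221 and miR-222 from 1453 to 2060.3 TPM (0.58). GATTGGC, the seed of miR-507, went from 9107 to 4012 TPM (-1.11), and CTGTCAC of miR-508 from 7426 to 3480.3 TPM (-1.02). GGCAGTG, the seed of ssc-miR-34c and miR-449-x held by 8 entries, went from 69.7 to 30.4 TPM (-1.12). The let-7 seed GAGGTAG, with 15 entries, was not called (-0.04, adjusted p = 0.813).

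At 120 days 47 of 1444 miRNAs tested (3.25%) differed between the breeds. Of the 145 called at 30 days, 143 were tested there, 11 were called again, and 9 of these had the same direction, 6.21% of the 30-day and 19.1% of the 120-day calls. Besides the 6 printed first, these were ssc-miR-199b-5p, miR-2137-z and miR-31-x. ssc-miR-199b-5p was at 4158, 3581 and 3915 TPM in the Hezuo and at 4599, 4396 and 4626 TPM in the Landrace libraries at 30 days (log2 fold change 0.31), and at 519 to 1616 TPM against 2421 to 3046 TPM at 120 days (1.28). Its 30-day call was lost with the exact test (adjusted p = 0.0886), the replicate block (0.0534), sequences within 1 edit merged (0.0531), scaling by library size alone, the fit of all 12 libraries, and without any 1 of the 30-day libraries but Ha3. The 30-day and the 120-day comparison share no library. Over all 143 the sign was the same in 82 (57.3%).

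miR-409-y and ssc-miR-1249 were called in opposite directions. miR-409-y, a member of the DLK1-DIO3 cluster, was at 61.1, 42.4 and 32.5 TPM in Ha1 to Ha3 and at 22.4, 19.5 and 16.8 TPM in La1 to La3 (log2 fold change -1.12), and at 10.2, 1.09 and 3.604 TPM in Hb1 to Hb3 and 33.0, 12.2 and 30.9 TPM in Lb1 to Lb3 (2.26). ssc-miR-1249 was at 6.91, 23.4 and 15.7 TPM against 7.94, 5.21 and 4.32 TPM at 30 days (-1.34), where Ha1 lay below La1, and at 5.25, 0.109 and 2.83 TPM against 17.5, 17.4 and 12.4 TPM at 120 days (2.45). The 30-day call of ssc-miR-1249 was lost with the robust estimate (adjusted p = 0.198), with filterByExpr (0.0644), without Ha2, La2 or La3, and in the fit of all 12 libraries. The test of the breed difference between ages called 20 (1.38%) of all 1452, and 12 of the 145 called at 30 days. The count of 12 ran from 0 to 36 over the alternatives, with 0 without La3 or Lb1 and with scaling by library size alone, and 36 without Hb1 and with DESeq2.

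**Figure D5:**
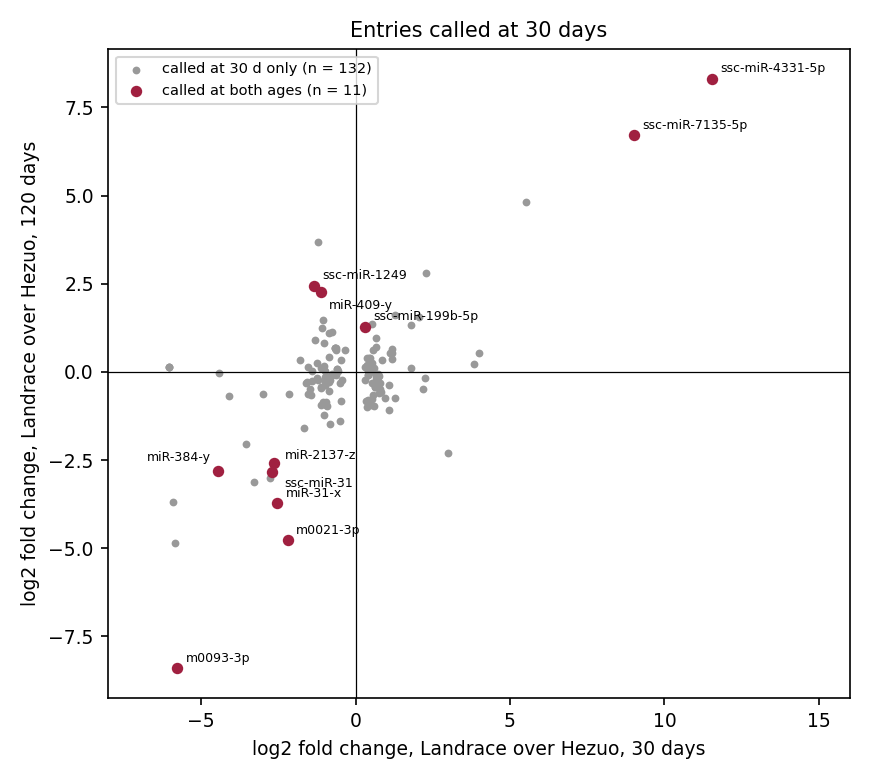
Log2 ratio of Landrace over Hezuo at 30 days and at 120 days for the 143 miRNAs called at 30 days and tested at both ages. Red points (11) were called at both ages, and the sign was the same for 82 of the 143.

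A set of 10 miRNAs had been chosen for RT-qPCR among those that differed in any comparison of the series. In the libraries at 30 days 2 of them were called, ssc-miR-31 and miR-409-y. The other 8 had log2 fold changes from -0.90 (m0010-5p, adjusted p = 0.468) to 0.20 (miR-93-y, adjusted p = 0.453). ssc-miR-149 (-0.33, adjusted p = 0.251), ssc-miR-217 (-0.49, adjusted p = 0.336) and miR-383-x (-0.19, adjusted p = 0.647) were among them, and none of the 8 was told apart between the breeds at this depth and number of libraries.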

How the data were processed

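The authors made libraries from testis total RNA with a small RNA kit, filtered reads with fastp, removed tags of other RNA classes, exons, introns and repeats of Sscrofa11.1, assigned what remained to miRBase entries through bowtie, and used miRDeep2 to predict further hairpins. The deposited counts are raw tags per listed miRNA. The deposited TPM values are counts per 1000000 clean tags, with a count of 0 written as 0.01, taken here as 0. The deposited table of predicted hairpins gives positions, a miRDeep2 score and a GC percent; only positions were used. Positions of other hairpins come from RefSeq for Sscrofa11.1.

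Counts of Ha and La were tested with edgeR 4.0.16 in R 4.3.3 (TMM, quasi-likelihood, Benjamini-Hochberg adjustment over 1278 miRNAs with at least 1 count), as counts from 8697939 to 16874633 per library allow. On simulated data of 1264 miRNAs, 83 of 100 changes of log2 size 1 and 99 of 100 of size 2 were called, and 12 of 1064 unchanged miRNAs. Recovery was not measured separately for miRNAs of low count. The shares of changes called therefore cannot be taken as those for all 1278 miRNAs tested. Alternatives were other scaling, filters and fits, DESeq2 1.42.0, merged near-identical entries, a replicate block and each library left out.

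Named miRNAs were the 12 largest differences in each direction at 10 TPM or more, the 10 most abundant, the 10 measured by RT-qPCR, and called members of 30 lists (families, clusters and cell markers) with the most abundant of each. The members and lists were chosen with earlier results of these data known. No library was left out, and no pair of libraries of a group held counts as alike as chance sampling would leave them.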

Additional observations from a re-analysis of the deposited data

Results flagged for a closer look

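The breed difference of 14 named or called entries differed between 30 and 120 days, by edgeR's test of the interaction in a fit of all 12 libraries with Benjamini-Hochberg adjustment over 1452 miRNAs. Values are the log2 ratio of Landrace over Hezuo at 120 days minus that at 30 days. Of entries higher in Landrace at 30 days, miR-2478-z had a difference of -1.97 (adjusted p = 0.0145), miR-11202-x of -1.65 (adjusted p = 0.0355), ssc-miR-101 of -1.32 (adjusted p = 0.0476) and miR-6519-z of -1.50 (adjusted p = 0.0476), and their 120-day ratios were -0.75, -0.74, -1.01 and -0.97. The first 2 end in CCA. Of entries lower in Landrace at 30 days, the difference was 3.77 for ssc-miR-1249 (adjusted p = 0.0377), 3.37 for miR-409-y (adjusted p = 0.0324), 1.97 for miR-216-x (adjusted p = 0.0355) and 1.91 for miR-380-y (adjusted p = 0.0476), with 120-day ratios of 2.45, 2.26, 1.10 and 1.13. miR-409-y and miR-380-y belong to the DLK1-DIO3 cluster. m0021-3p kept its direction and had a difference of -2.52 (adjusted p = 0.0145). m0252-5p, m0253-5p and m0254-5p are 1 identical sequence below 1 TPM at 30 days, with a difference of 6.14 (adjusted p = 0.0476). ssc-miR-450b-5p (1.31, adjusted p = 0.0324) and ssc-miR-29a-3p (-1.73, adjusted p = 0.0377) were not called at 30 days alone. The count of such differences among 30-day calls moved with the processing, as given below.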

How the results depend on the processing

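No direction of a called named miRNA reversed under any alternative run. Of 77 called named miRNAs, 66 lost the call in the fit of all 12 libraries, 38 without Ha1, 35 without La3, 18 with filterByExpr, 17 with robust estimation (10 of them in the X-linked miR-506 to miR-888 group) and 0 without Ha3. With all 12 libraries 10 miRNAs were higher and 19 lower, with library size only 40 were higher, and with sequences within 1 edit merged 39 were higher. Leaving out 1 library gave 29 to 110 higher and 49 to 152 lower, both highest without Ha3. At the study's thresholds DESeq2 gave 29 and filterByExpr 16 higher, and filterByExpr 46 lower. Calls at both ages in the same direction were 5 with library size only, 17 with DESeq2, and 5 to 22 with 1 library left out (22 without Hb1, 5 without Hb3). Interaction calls were 19 with RLE, 0 with library size only, 36 with DESeq2, and 0 to 36 with 1 library left out (0 without La3 or Lb1, 36 without Hb1). Seed families higher were 21 with library size only and 16 to 60 with 1 library left out, and seed families lower 36 with filterByExpr and 28 to 112 with 1 library left out. The cause was not tested. Replicate numbers are shared across groups, and no meaning is stated for them. The deviations of same-numbered 30-day libraries correlated at 0.00462, 0.168 and -0.0125, and those of differently numbered ones at -0.205 to 0.171. These few correlations cannot tell whether same-numbered libraries were handled together. With the replicate block 60 miRNAs were higher and 86 lower, and 16 had the same direction at both ages. Depth limits entries near 0.158 to 0.304 TPM, the level of 3 counts.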

Other observations

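In mammals the serotonin receptor gene HTR2C on chromosome X hosts a cluster of miRNAs. Entries of this cluster, chosen after their values were seen, were higher in Landrace at 30 days. Of 7 entries tested 4 were called higher, all 7 log2 ratios were above 0, the smallest 0.12 for miR-1911-z, and their median was 2.99. Over all 1278 miRNAs 5.01% were called higher and the median was -0.01. Since the set was chosen after its values were seen, these background values are no test of it. miR-1298-x stood at 2.86, 2.44 and 1.20 TPM in Ha1 to Ha3 and at 9.42, 10.6 and 8.91 TPM in La1 to La3 (log2 fold change 2.24 ± 0.28, SE, adjusted p = 0.000116), without overlap. The other 3 rested on few counts. miR-1912-z had 3 counts in the Hezuo and 56 in the Landrace group, a ratio of 14.3 with a 95% counting interval of 4.66 to 71.7. miR-1264-y had 2 and 46, a ratio of 17.7 (4.62 to 150.4), and miR-1911-x 3 and 31, a ratio of 7.94 (2.48 to 40.6). miR-448-y, miR-1298-y and miR-1911-z were not called. All 7 stood below 11 TPM in each 30-day library, and at 120 days miR-1298-x was not called (-0.17, adjusted p = 0.914). All 7 are entries matched to miRNAs of other species, and their positions in the pig genome were not determined. The X-linked miR-506 group went the other way.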
